A study of Mus musculus with 28 samples.

Results

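Cd274 and Pdcd1lg2 encode PD-L1 and PD-L2, the ligands of the T cell inhibitory receptor PD-1. Both genes were chosen by name, selected on their measured log2 CPM (CPM is the count scaled to a common library size) across 6 treatment groups of mouse mesothelioma tumors, so their levels are given here as a description without a test. They are 2 of the 55341 genes listed, and both passed the filter on low counts, as did 18521 genes of the joined data. RNA was sequenced from 28 whole subcutaneous AB1-HA tumors, each grown on the flank of a female BALB/c.AusBP mouse from a transplanted mesothelioma line that expresses influenza hemagglutinin. Treatment began when tumors covered 20 to 25 mm2, and tumors were harvested 7 days after it began.

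The groups were PBS (4 tumors), immune checkpoint blockade (ICB, 5 tumors), 5-fluorouracil (5-FU, 5 tumors, 75 mg/kg into the tail vein), cisplatin (4 tumors, 6 mg/kg intraperitoneally), 5-FU+ICB (5 tumors) and cisplatin+ICB (5 tumors). ICB was 1 dose of 100 µg antibody to CTLA-4 and 3 doses of 100 µg antibody to PD-L1, so the protein made from Cd274 was itself a target of the treatment in all 3 ICB groups. Only RNA is described here, and PD-L1 protein was not analysed. Libraries held between 23541733 and 33950805 estimated counts. A floor of 3 counts corresponds to 0.0884 to 0.127 CPM, so both genes were measured above it in every tumor. No pair of libraries held identical values. The TMM factor, which scales each library for its composition, ranged from 0.685 to 1.15, and the lowest belonged to cisplatin+ICB replicate 1.

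PD-1 is carried by activated T cells, and its binding to either ligand dampens signalling from the T cell receptor. PD-L1 is made by many cell types, tumor cells included, and is strongly induced by interferon-gamma through the kinases JAK1 and JAK2 and the factor IRF1. PD-L2 is made mainly by macrophages and dendritic cells and responds to interferons and to the cytokines IL-4 and IL-13 through STAT6. PD-L1 also binds CD80, and PD-L2 also binds RGMB.

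The 2 genes lie side by side on mouse chromosome 19 and are read from the same strand. In the GENCODE M21 annotation of GRCm38, Cd274 (ENSMUSG00000016496.7) spans chr19:29367455-29388095 on the plus strand, and Pdcd1lg2 (ENSMUSG00000016498.10) spans chr19:29410919-29471161 on the plus strand, with 22823 bp between them. Cd274 has 1 transcript of 7 exons and 3622 nt. Pdcd1lg2 has a transcript of 6 exons and 1649 nt and another of 5 exons and 1729 nt. The start of Cd274 faces that of Plgrkt, a plasminogen receptor gene on the minus strand whose start lies 64 bp away in this annotation.

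The sequences just upstream of both starts are shown because interferon regulatory factors bind such stretches. They come from the RefSeq promoter set (GRCm38.p6), in which both genes were found, and are read 5′ to 3′ on the plus strand. The 250 bases before each start were searched on both strands for 3 motifs. Capitals mark matches to the core site of interferon regulatory factors, AANNGAAA, here read on the opposite strand.

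Cd274, chr19:29367252-29367281: ccgaagcctagTTTCGTTTtttcttaaact
Cd274, chr19:29367391-29367437: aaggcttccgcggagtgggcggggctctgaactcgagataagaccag
Pdcd1lg2, chr19:29410669-29410918: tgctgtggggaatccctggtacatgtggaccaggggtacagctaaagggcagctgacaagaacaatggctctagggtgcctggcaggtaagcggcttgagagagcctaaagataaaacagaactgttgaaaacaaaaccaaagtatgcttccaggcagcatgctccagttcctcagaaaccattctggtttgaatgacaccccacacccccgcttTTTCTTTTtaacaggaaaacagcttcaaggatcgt

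The Cd274 match lay at positions -175 to -168 from the RefSeq start, within the Plgrkt gene. The second Cd274 line is the stretch between the Plgrkt and Cd274 starts. The Pdcd1lg2 match lay at positions -35 to -28. This core was present in 21.3% of the 32851 RefSeq promoters of the same length. The letters of the AP-1 site (TGANTCA, in 6.75% of promoters) and the hypoxia factor core (ACGTG, in 16.6%) were not found in these 250 bases of either gene.

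Cd274 was lowest in PBS tumors and highest in ICB tumors. Its level was 9.81, 11.9, 13.5 and 12.8 CPM in the 4 PBS tumors. It was 162, 253, 153, 160 and 208 CPM in the 5 ICB tumors. Every ICB tumor was above every PBS tumor, and both groups were narrow, with the highest tumor 1.65 times the lowest under ICB and 1.38 times under PBS.

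Under chemotherapy alone, Cd274 stood apart from PBS with 5-FU only. The 5-FU tumors had 33.5, 52.4, 79.9, 17.2 and 61.6 CPM of Cd274, all above the PBS tumors and all below the ICB tumors. The cisplatin tumors had 23.1, 10.7, 10.1 and 15.8 CPM, a range that overlaps that of PBS.

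With both drugs and ICB, Cd274 was again high, but evenly so only with 5-FU. The 5-FU+ICB tumors had 143, 105, 128, 139 and 113 CPM, all above the 5-FU tumors and all below the ICB tumors. The cisplatin+ICB tumors had 16.8, 211, 36.4, 159 and 141 CPM. In this group replicates 1 and 3 lay below the highest 5-FU tumor while the other 3 reached the range of ICB or 5-FU+ICB, and the highest tumor was 12.5 times the lowest.

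**Figure D1:**
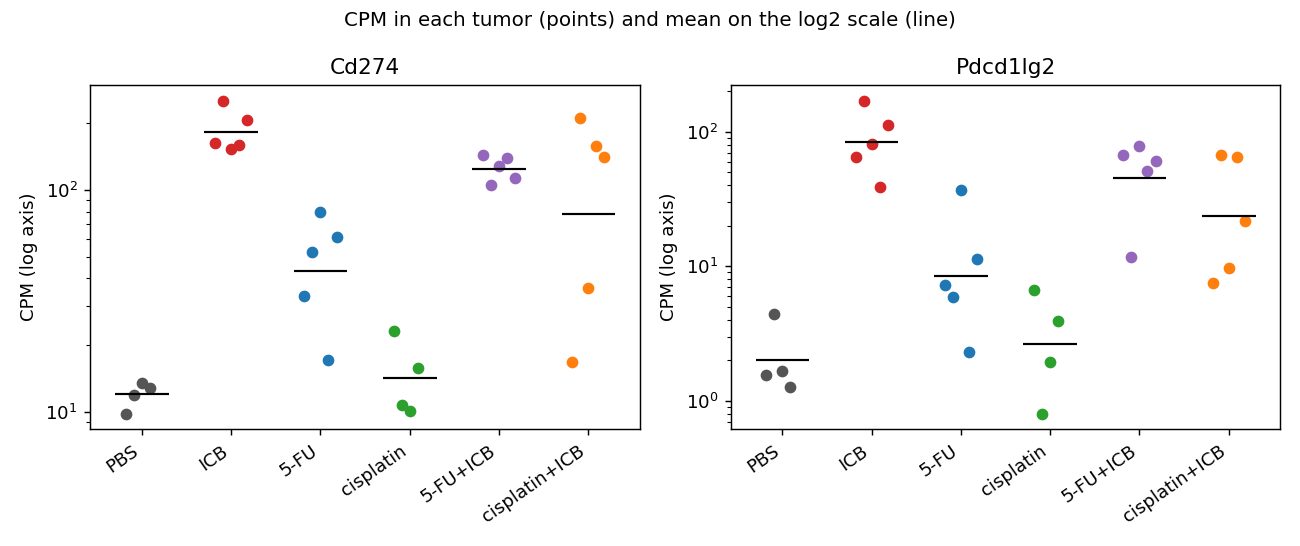
CPM of Cd274 (left) and Pdcd1lg2 (right) on log axes in the 6 treatment groups, with each tumor as a point and the group mean on the log2 scale as a line. ICB tumors sit at 153 CPM or more for Cd274 and 38.9 CPM or more for Pdcd1lg2, and PBS tumors at 13.5 CPM or less and 4.44 CPM or less.

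Pdcd1lg2 ran over a wider range than Cd274, and its log2 levels spread more within each group except cisplatin+ICB. It was 1.54, 4.44, 1.66 and 1.26 CPM in PBS tumors. In ICB tumors it was 65.3, 170, 81.6, 38.9 and 113 CPM, all above PBS. Replicate 2 was the highest ICB tumor for both genes.

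The 5-FU tumors had 7.29, 5.90, 37.2, 2.32 and 11.3 CPM of Pdcd1lg2. Replicate 3 was the highest and replicate 4 the lowest, as for Cd274, and replicate 4 fell within the PBS range. The cisplatin tumors had 6.69, 0.800, 1.95 and 3.94 CPM of Pdcd1lg2 and overlapped PBS, with 1 tumor below all PBS tumors and 1 above.

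In the combinations, 5-FU+ICB tumors had 67.0, 11.8, 77.7, 51.0 and 60.1 CPM of Pdcd1lg2. Replicate 2 stood below the other four, although its Cd274 level of 105 CPM was close to that of the others. The cisplatin+ICB tumors had 7.53, 67.7, 9.78, 65.4 and 21.8 CPM of Pdcd1lg2. Replicates 1 and 3 were the lowest for both genes.

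On the log2 scale the group means are given with the SD over tumors. For Cd274 the mean log2 CPM was 3.58 ± 0.20 in PBS, 7.52 ± 0.31 in ICB, 5.43 ± 0.87 in 5-FU, 3.83 ± 0.55 in cisplatin, 6.97 ± 0.19 in 5-FU+ICB and 6.29 ± 1.58 in cisplatin+ICB. For Pdcd1lg2 it was 1.02 ± 0.79 in PBS, 6.38 ± 0.80 in ICB, 3.09 ± 1.45 in 5-FU, 1.39 ± 1.28 in cisplatin, 5.50 ± 1.10 in 5-FU+ICB and 4.56 ± 1.48 in cisplatin+ICB. The SD of Pdcd1lg2 was the larger in every group but cisplatin+ICB.

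By mean log2 CPM both genes put the groups in the same order, from PBS through cisplatin, 5-FU, cisplatin+ICB and 5-FU+ICB to ICB. Of the neighbours in that order, only 5-FU+ICB and ICB for Cd274 had ranges that did not overlap. The other 4 neighbouring pairs for Cd274 and all 5 for Pdcd1lg2 overlapped, so the order within them is not separated by these tumors. By median, Cd274 was higher in cisplatin+ICB (141 CPM) than in 5-FU+ICB tumors (128 CPM).

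The differences in mean log2 CPM, each with its standard error, set these levels side by side. Under ICB, Cd274 was higher than in PBS by 3.96 ± 0.17 (15.6-fold) and Pdcd1lg2 by 5.39 ± 0.56 (41.8-fold). Of all genes tested, 99.6% had a smaller difference than Cd274 and 99.9% a smaller one than Pdcd1lg2. Neither gene's groups overlapped, and the same was true of 36.4% of the 17916 genes tested in this comparison.

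In 5-FU tumors, Cd274 was higher than in PBS by 1.86 ± 0.41 (3.62-fold) with no overlap. Pdcd1lg2 was higher by 2.08 ± 0.78 (4.22-fold), with 4 of 5 tumors above all PBS tumors. Groups without overlap made up 24.8% of genes in this comparison. In cisplatin tumors the differences from PBS were 0.25 ± 0.30 for Cd274 and 0.38 ± 0.75 for Pdcd1lg2, both smaller than their standard errors, with overlap in both, beside 3.40% of genes without overlap. The Pdcd1lg2 difference was -0.08 without cisplatin replicate 1 and 0.91 without cisplatin replicate 2.

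In 5-FU+ICB tumors, Cd274 was higher than in PBS by 3.40 ± 0.12 and Pdcd1lg2 by 4.51 ± 0.66, both without overlap, as were 24.4% of genes. In cisplatin+ICB tumors, Cd274 was higher than in PBS by 2.72 ± 0.71 and Pdcd1lg2 by 3.56 ± 0.77. Both had no overlap with PBS, as was true of 7.99% of genes, and the median difference over all genes was -0.11. All these comparisons share the same 4 PBS tumors.

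Set against ICB alone, the combinations were lower. Cd274 in 5-FU+ICB tumors was below ICB by 0.56 ± 0.18 on the log2 scale (a ratio of 0.679) with no overlap, beside 2.35% of genes. Pdcd1lg2 differed by -0.88 ± 0.62 with overlap, and by -0.38 without 5-FU+ICB replicate 2. In cisplatin+ICB tumors the differences from ICB were -1.23 ± 0.72 for Cd274 and -1.82 ± 0.76 for Pdcd1lg2, both with overlap, beside 1.40% of genes without. Without cisplatin+ICB replicate 1 they were -0.65 and -1.38.

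Set against the same drug alone, adding ICB went with higher levels of both genes. Cd274 in 5-FU+ICB tumors was higher than in 5-FU tumors by 1.55 ± 0.41 with no overlap, beside 1.59% of genes. Pdcd1lg2 was higher by 2.43 ± 0.83, with 4 of 5 tumors above all 5-FU tumors. In cisplatin+ICB tumors, Cd274 was higher than in cisplatin tumors by 2.47 ± 0.76, with 4 of 5 tumors above all cisplatin tumors. Pdcd1lg2 was higher by 3.18 ± 0.92 with no overlap, beside 3.31% of genes. These contrasts were among the values the genes were chosen on, so nothing is read from the shares.

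**Figure D2:**
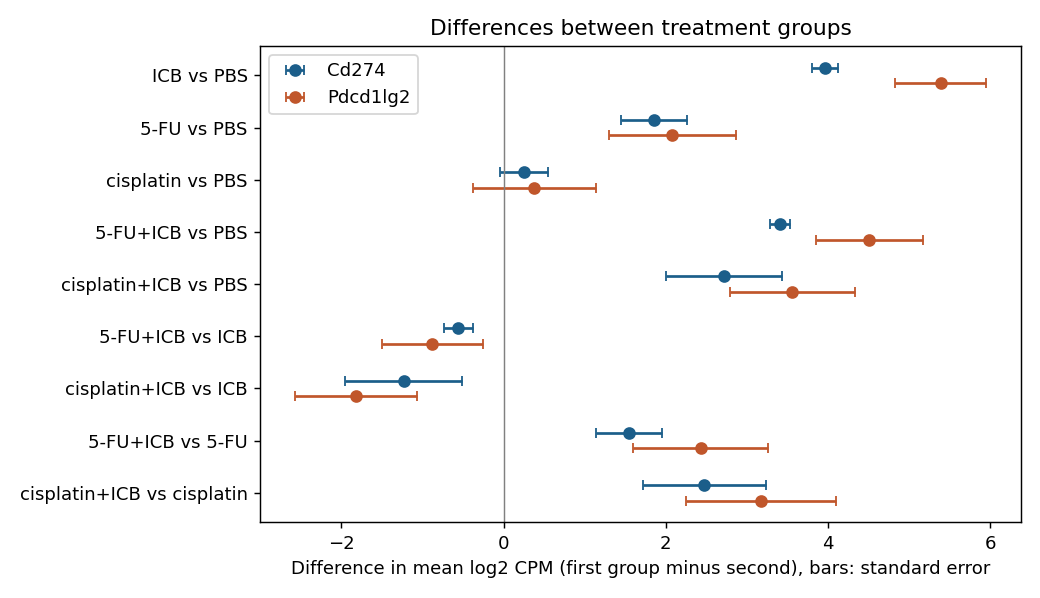
Difference in mean log2 CPM (first group minus second, horizontal axis) for the 9 comparisons, with points for Cd274 and Pdcd1lg2 and bars for the standard error over tumors. The 2 cisplatin vs PBS points lie near 0, and the ICB vs PBS points lie at 3.96 and 5.39.

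The distance between the 2 genes was similar in the 3 groups without ICB and smaller on average in the 3 groups with it. Log2 CPM of Cd274 minus that of Pdcd1lg2 averaged 2.57 ± 0.82 in PBS, 2.43 ± 0.83 in cisplatin and 2.34 ± 0.79 in 5-FU tumors. It averaged 1.14 ± 0.57 in ICB, 1.46 ± 0.98 in 5-FU+ICB and 1.73 ± 0.61 in cisplatin+ICB tumors. The tumor ranges of groups with and without ICB overlapped, for example 1.41 to 3.27 in PBS and 0.57 to 2.04 in ICB.

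To compare the amounts of the 2 transcripts, levels were also divided by the length of each gene's longest transcript. Per kilobase, the median was 3.41 CPM per kb for Cd274 and 0.926 for Pdcd1lg2 in PBS tumors. In ICB tumors it was 44.8 for Cd274 and 47.2 for Pdcd1lg2. Pdcd1lg2 was above Cd274 per kilobase in 3 of the 5 ICB tumors, in 2 of the 5 tumors given 5-FU+ICB and in 0 tumors of the other groups.

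Over the 28 tumors, log2 CPM of the 2 genes had a Pearson r of 0.95 and a Spearman rho of 0.93, and r was 0.94 without the 2 tumors farthest from the median Cd274 level. After each group's mean was subtracted, r was 0.77. These tumors share a line, a strain and, through the groups, treatments, and the values are a description. Within the 13333 genes compared, Pdcd1lg2 ranked 34 among those most like Cd274, and Cd274 ranked 36 among those most like Pdcd1lg2. Within groups these ranks were 319 and 410.

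**Figure D3:**
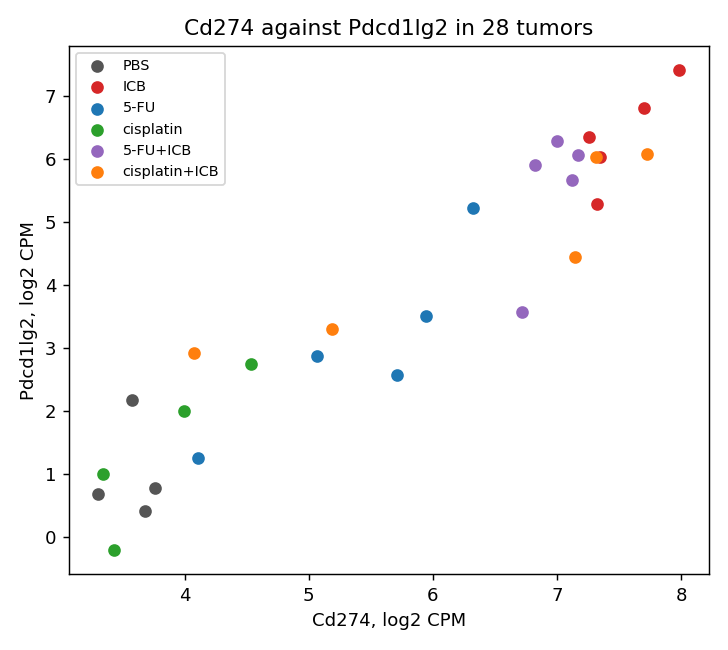
Log2 CPM of Pdcd1lg2 (vertical) against that of Cd274 (horizontal), with each of the 28 tumors as a point colored by treatment. PBS and cisplatin tumors lie at the lower left, ICB tumors at the upper right, and the cisplatin+ICB tumors spread between them (r 0.95 over all tumors).

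The genes whose levels followed Cd274 most closely included Ifng, the gene of interferon-gamma, and members of the Gbp family. Gbp4 had the highest r (0.99), followed by Ifng (0.98), Gm43302 (0.98), Gbp10 (0.98) and Gbp2b (0.98). The Gbp genes encode guanylate-binding proteins, GTPases induced by interferons, and are near-identical enough in places that reads may have been shared among them. With group means subtracted, the leading 5 genes included Gbp4 (0.96), Gm43302 (0.95), Il12rb1 (0.94), a subunit of the IL-12 receptor, and Gbp10 (0.93).

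The genes that followed Pdcd1lg2 were others. They were Cd200r4 (0.98), a myeloid receptor gene, Serpina3g (0.97), a protease inhibitor, Tbxas1 (0.97), which encodes thromboxane synthase, Slamf8 (0.97), a macrophage surface receptor, and Plbd1 (0.97). With group means subtracted, they were F7 (0.94), which encodes coagulation factor VII, Tarm1 (0.94), a myeloid activating receptor, Slamf8 (0.94), Plbd1 (0.93) and H2-DMa (0.93), an MHC class II chaperone. No gene was in the leading 5 of both ligands on either measure. Whether the 2 sets differ beyond chance was not tested.

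Each group of tumors also differed in its content of leukocyte transcripts, and in bulk tissue more cells of a type and more RNA per cell cannot be told apart. Ptprc, the gene of the pan-leukocyte antigen CD45, averaged 92.1 ± 12.7 CPM in PBS, 365 ± 82.4 in ICB, 195 ± 99.0 in 5-FU, 114 ± 41.1 in cisplatin, 402 ± 223 in 5-FU+ICB and 243 ± 108 in cisplatin+ICB tumors. All 4 leukocyte markers (Ptprc, Laptm5, Coro1a, Cd53) had a higher mean than PBS in each of the other 5 groups. Their summed level ran from 448 to 585 CPM in PBS, 1130 to 2673 in ICB, 530 to 1871 in 5-FU, 476 to 756 in cisplatin, 603 to 3787 in 5-FU+ICB and 717 to 1709 in cisplatin+ICB tumors.

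Macrophage markers moved with them: all 7 had a higher mean than PBS in the 3 ICB groups, with a summed level of 1380 to 2118 CPM in PBS and 2896 to 7871 CPM in ICB tumors. All 6 T cell markers did so too, from 22.8 to 30.6 CPM in PBS to 160 to 638 CPM in ICB tumors. All 7 dendritic cell markers were higher on average in ICB, with a summed level of 92.0 to 129 CPM in PBS and 117 to 456 CPM in ICB tumors. All 5 neutrophil markers were higher on average in ICB, with a summed level of 9.32 to 18.5 CPM in PBS and 59.5 to 166 CPM in ICB tumors. All 4 endothelial markers were too, at 67.2 to 133 CPM in PBS and 134 to 269 CPM in ICB tumors. The 8 mesothelial markers did not move one way: their sum was 334 to 479 CPM in PBS and 147 to 299 CPM in ICB tumors, while 5 of the 8 had a higher mean than PBS in ICB, 6 in 5-FU+ICB and 7 in cisplatin+ICB. The 4 B cell markers summed to 6.64 to 24.4 CPM in ICB, with a median of 7.91, and 13.6 to 17.3 CPM in PBS tumors, with 3 of 4 means higher in ICB. The 4 skeletal muscle markers ran from 0.731 to 2910 CPM in ICB and 1.18 to 3922 CPM in 5-FU+ICB tumors against 88.0 to 153 CPM in PBS. In ICB all 4 monocyte and all 4 NK cell markers had a higher mean than PBS, and 2 of 4 fibroblast markers did. Upk3b, a mesothelial marker, was at 0 in every ICB, 5-FU and 5-FU+ICB tumor. Their part in the ligand levels was not tested.

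Set relative to Ptprc, both ligands were still higher on average in the ICB groups than in PBS, by a smaller amount. Log2 CPM of Cd274 minus that of Ptprc averaged -2.93 ± 0.34 in PBS, -2.94 ± 0.19 in cisplatin, -2.03 ± 0.38 in 5-FU, -1.50 ± 0.92 in cisplatin+ICB, -1.44 ± 0.96 in 5-FU+ICB and -0.96 ± 0.35 in ICB tumors. For Pdcd1lg2 it averaged -5.50 ± 0.70 in PBS, -5.37 ± 0.82 in cisplatin, -4.37 ± 0.80 in 5-FU, -3.23 ± 0.98 in cisplatin+ICB, -2.91 ± 0.53 in 5-FU+ICB and -2.10 ± 0.54 in ICB tumors. The tumors given ICB alone and the PBS tumors did not overlap on this measure for either gene. For Cd274, 5-FU (-2.50 to -1.44), 5-FU+ICB (-2.67 to 0.00) and cisplatin+ICB (-2.81 to -0.40) overlapped PBS (-3.22 to -2.47) on this measure, although none of the 3 did in CPM. For Pdcd1lg2, both combinations stayed above the PBS range of -6.17 to -4.55. The difference between ICB and PBS was 1.97 for Cd274 and 3.40 for Pdcd1lg2.

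In the 5-FU+ICB group the tumors lined up differently on this scale. Replicate 2, with 105 CPM of both Cd274 and Ptprc, had the highest Cd274 relative to Ptprc (0.00), and replicate 5, with 723 CPM of Ptprc, had the lowest (-2.67).

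**Figure D4:**
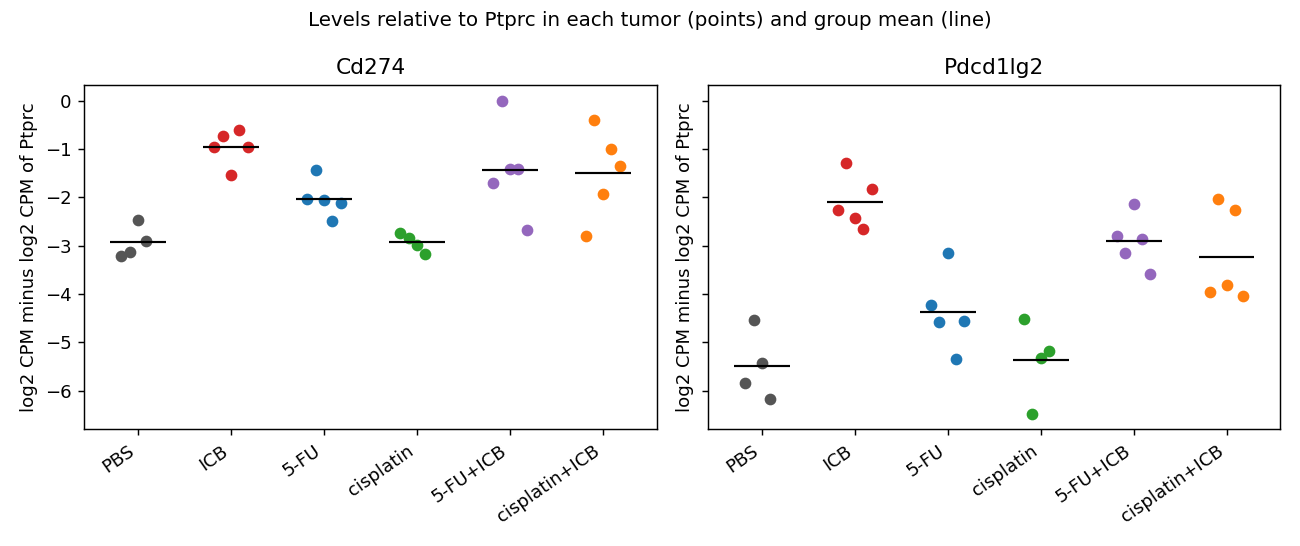
Log2 CPM of Cd274 (left) and of Pdcd1lg2 (right) minus log2 CPM of Ptprc in the same tumor, with each tumor as a point and the group mean as a line. PBS tumors lie between -3.22 and -2.47 for Cd274 and ICB tumors between -1.53 and -0.62, without overlap.

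The receptors, signalling genes and other ligands around the PD-1 ligands were compared next, as 55 genes in 6 lists, of which 53 had enough counts to be tested (Vtcn1 and Fgl1 did not). A gene was called changed where edgeR's quasi-likelihood test gave a Benjamini-Hochberg adjusted p under 0.05 over all genes tested and the log2 fold change exceeded 0.5 in size. The lists were chosen with earlier results of these data known, so their counts beside the shares of all genes are, here and below, a description. Of the 53 genes, 37 were called in ICB vs PBS (34 higher, 3 lower), against 37.8% of all genes. In 5-FU vs PBS 16 were called (14 higher, with Cops5 and Stub1 lower), against 23.0%. In 5-FU+ICB vs PBS 37 were called (35 higher, 2 lower), against 40.7%. In cisplatin+ICB vs PBS 12 were called, all higher, against 6.10%. DESeq2 called 38, 23, 39 and 18 of the listed genes in these comparisons, beside 7404, 4856, 7923 and 2156 over all genes. The median log2 fold change of the 53 genes in these comparisons was 1.07, 0.47, 0.85 and 0.55, beside -0.03, -0.01, -0.04 and 0.03 over all genes.

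The count for cisplatin+ICB vs PBS turned on single tumors. It was 32 without cisplatin+ICB replicate 1, and 0 without PBS replicate 1, 3 or 4. It was 7 without PBS replicate 2, 4 without cisplatin+ICB replicate 2 or 5 and 3 without cisplatin+ICB replicate 4. The count for 5-FU vs PBS was 6 without PBS replicate 1, 7 without PBS replicate 2 and 10 without 5-FU replicate 3.

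In cisplatin vs PBS 0 of the 53 genes were called by edgeR, against 0% of all genes. Of the 53, 0 had an unadjusted p under 0.05, beside 317 of all 17819 genes, and DESeq2 called 0, beside 3 over all genes. The remaining 4 comparisons also gave 0 calls by edgeR among the 53 genes. For 5-FU+ICB vs ICB, where edgeR called 0.229% of all genes, 6 had an unadjusted p under 0.05, beside 1947 of all 17916 genes. DESeq2 called 328 over all genes, and the 1 listed gene among them was Vtcn1, which the filter had kept out of the edgeR test. For cisplatin+ICB vs ICB, where edgeR called 0% of all genes, 14 had an unadjusted p under 0.05, beside 2839 of all 17819 genes. DESeq2 called 0 of the listed genes there, beside 52 over all genes. For 5-FU+ICB vs 5-FU, where 0.0112% of all genes were called, the numbers were 30 and 15. For cisplatin+ICB vs cisplatin, where edgeR called 0% of all genes, 23 had an unadjusted p under 0.05, beside 2530 of all 17819 genes. DESeq2 called 15 of the listed genes there, beside 782 over all genes. Leaving out 1 tumor gave up to 23 edgeR calls in either of the last pair, without 5-FU+ICB replicate 2 and without cisplatin+ICB replicate 1.

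Of the receptors and binding partners, only the receptor gene Pdcd1, which encodes PD-1, was called. It had 2.96 to 9.02 CPM in PBS tumors, with a median of 3.55, and 41.6 to 137 CPM in ICB tumors, with a median of 50.9. Its log2 fold change was 3.93 ± 0.94 (SE) in ICB vs PBS (edgeR adjusted p = 0.00367), 4.63 ± 0.97 in 5-FU+ICB vs PBS (edgeR adjusted p = 0.00187) and 3.11 ± 0.71 in cisplatin+ICB vs PBS (edgeR adjusted p = 0.0218). In 5-FU vs PBS it was 2.31 ± 0.87 and was not called (edgeR adjusted p = 0.0579), though DESeq2 called it. Among 5-FU+ICB tumors Pdcd1 ran from 4.78 to 266 CPM.

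The partners of the ligands were not called by edgeR in any of the 9 comparisons, though DESeq2 called Cd80 in cisplatin+ICB vs PBS. Cd80, which binds PD-L1, averaged 21.9 ± 4.90 CPM in PBS and 19.9 ± 2.36 CPM in ICB tumors. Rgmb, which binds PD-L2, averaged 114 ± 21.7 CPM in PBS and 82.1 ± 20.5 CPM in ICB tumors, with a log2 fold change of -0.44 ± 0.29 (edgeR adjusted p = 0.237).

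Of 7 genes of T cell receptor signalling, 6 were called higher in ICB vs PBS (37.8% of all genes were called) and the same number in 5-FU+ICB vs PBS (40.7%), 4 in cisplatin+ICB vs PBS (6.10%) and 3 in 5-FU vs PBS (23.0%). When ICB was added to either drug, 0 of the 7 were called by edgeR against that drug alone. Of the 7, 6 had an unadjusted p under 0.05 with either drug, and DESeq2 called 4 with 5-FU and 6 with cisplatin. Over all genes, 2983 of 17916 and 2530 of 17819 had such a p, and DESeq2 called 539 and 782. In ICB vs PBS, Cd3e, a chain of the T cell receptor complex, had a log2 fold change of 3.51, the costimulatory receptor gene Cd28 3.73 and the kinase gene Zap70 2.82. Ptpn11, the gene of the phosphatase SHP-2 that PD-1 recruits, had 0.09 ± 0.20 and was not called in any comparison. T cell receptor genes move with the T cell markers above, and Cd3e is also one of those markers.

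Of 15 genes of the interferon pathway that leads to Cd274, 12 were called higher in ICB vs PBS (37.8% of all genes were called in either direction), 13 in 5-FU+ICB vs PBS (40.7%), 6 in 5-FU vs PBS (23.0%) and 4 in cisplatin+ICB vs PBS (6.10%), with 0 lower. Differences between these counts were not tested. In the other 5 comparisons edgeR called 0 of the 15. For 5-FU+ICB vs 5-FU, 12 had an unadjusted p under 0.05 and DESeq2 called 6. For cisplatin+ICB vs cisplatin the numbers were 5 and 4, and for 5-FU+ICB vs ICB 1 and 0. For cisplatin+ICB vs ICB they were 6 and 0, and for cisplatin vs PBS 0 and 0. Over all genes, in the same order, they were 2983 and 539, 2530 and 782, 1947 and 328, 2839 and 52, and 317 and 3. Ifng, the gene of interferon-gamma, had 0.203 to 0.407 CPM in PBS tumors and 8.32 to 16.4 CPM in ICB tumors, and its log2 fold change was 5.26 ± 0.57 (edgeR adjusted p = 2.44e-05). It was also called in 5-FU vs PBS, at 2.69 ± 0.52 (edgeR adjusted p = 0.00421), in 5-FU+ICB vs PBS, at 4.74 ± 0.55 (edgeR adjusted p = 4.71e-05), and in cisplatin+ICB vs PBS, at 4.34 ± 0.76 (edgeR adjusted p = 0.0116). In cisplatin tumors Ifng had 0.235 to 0.781 CPM.

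Irf1, the factor that acts on the Cd274 promoter, had a log2 fold change of 1.94 ± 0.24 in ICB vs PBS, 1.51 ± 0.24 in 5-FU+ICB vs PBS and 1.31 ± 0.29 in cisplatin+ICB vs PBS, all called. In 5-FU vs PBS it was 0.54 ± 0.23 and was not called (edgeR adjusted p = 0.0894), though DESeq2 called it. Jak2, the kinase of the receptor, had 1.42 ± 0.21 in ICB vs PBS, 1.40 ± 0.21 in 5-FU+ICB vs PBS and 0.76 ± 0.20 in 5-FU vs PBS, all called, and 0.99 ± 0.35 in cisplatin+ICB vs PBS, not called by edgeR (edgeR adjusted p = 0.0964) but called by DESeq2. Ifngr2, a chain of the interferon-gamma receptor, and Irf9, a factor of interferon signalling, were not called in any comparison.

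Of 10 other inducers and regulators of ligand transcription, 8 were called higher and 1 lower in ICB vs PBS (37.8% of all genes were called), 7 higher in 5-FU+ICB vs PBS (40.7%), 2 higher in 5-FU vs PBS (23.0%) and 1 higher in cisplatin+ICB vs PBS (6.10%). Tnf, an inflammatory cytokine gene, was called in 4 comparisons and had a log2 fold change of 3.36 ± 0.53 in ICB vs PBS. Il4ra, the receptor chain shared by IL-4 and IL-13, was called in 3 comparisons (0.94 ± 0.24 in ICB vs PBS), and Il13, an inducer of PD-L2, in 2 (2.47 ± 0.74 in ICB vs PBS). Il4 was not called in any comparison. Myc was the gene called lower, at -0.79 ± 0.26 in ICB vs PBS only.

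Of 10 genes that act on the stability or trafficking of PD-L1 protein, 3 were called higher and 2 lower in ICB vs PBS. The numbers were the same in 5-FU+ICB vs PBS, and 1 higher and 2 lower in 5-FU vs PBS. In cisplatin+ICB vs PBS 0 were called. There 2 had an unadjusted p under 0.05, beside 4204 of all 17819 genes, and DESeq2 called 0, beside 2156 over all genes. Over all genes edgeR called 37.8%, 40.7%, 23.0% and 6.10% in these comparisons, so 5 of 10 is near the background. Cmtm6, whose protein keeps PD-L1 at the cell surface, had a log2 fold change of 1.07 ± 0.27 in ICB vs PBS. Gsk3b, a kinase gene, had 0.79 ± 0.23. Cops5, a deubiquitinase gene, had -0.73 ± 0.15, and Stub1, a ubiquitin ligase gene, had -0.57 ± 0.13. The members not called in any comparison were Cmtm4, Btrc, Cul3, Spop and Zdhhc3.

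Of 8 other B7 family and checkpoint ligands tested, 4 were called higher in ICB vs PBS (37.8% of all genes were called), 5 in 5-FU+ICB vs PBS (40.7%), 2 in 5-FU vs PBS (23.0%) and 2 in cisplatin+ICB vs PBS (6.10%). The counts for ICB and 5-FU are near the background. Cd86, a ligand of CD28 and CTLA-4, had a log2 fold change of 2.62 ± 0.52 in ICB vs PBS and Tnfrsf14, the ligand of BTLA, had 2.38 ± 0.27. Cd276, Pvr and Nectin2 were not called by edgeR in any comparison, though DESeq2 called Nectin2 in 5-FU+ICB vs PBS.

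**Figure D5:**
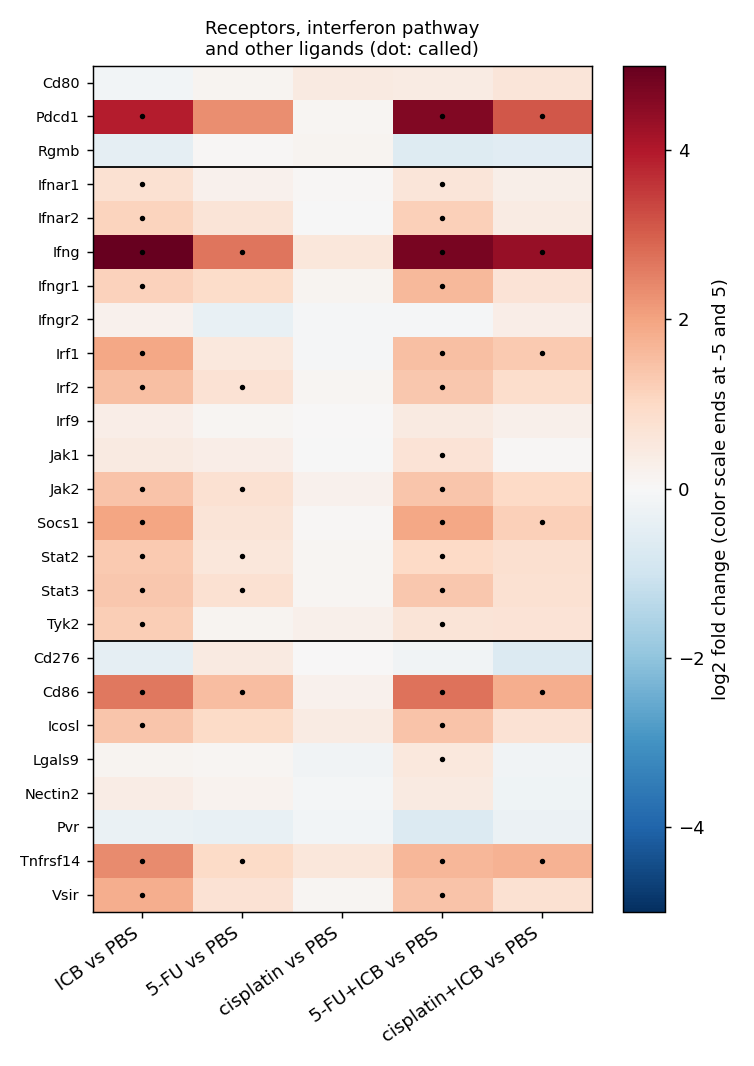
Log2 fold change by edgeR (color) of the receptors, interferon pathway genes and other ligands (rows, separated by lines) in the 5 comparisons with PBS (columns), with a dot where a gene was called. The cisplatin vs PBS column has 0 dots, and Ifng has dots in the other 4.

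Levels of the ligands were set beside Ptprc and 4 of these genes over the 28 tumors, as a description. Cd274 had a Pearson r of 0.98 with Ifng (rho 0.96), 0.95 with Irf1, 0.91 with Jak2 and 0.86 with Pdcd1, and 0.87 with Ptprc. With group means subtracted, r was 0.93 with Ifng and 0.66 with Ptprc. Pdcd1lg2 had r of 0.96 with Ifng and 0.92 with Ptprc, and 0.83 and 0.82 with group means subtracted.

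The genes on either side of the pair did not all move with it. Plgrkt, next to Cd274, averaged 32.2 ± 6.48 CPM in PBS and 50.4 ± 5.66 CPM in ICB tumors, a log2 fold change of 0.66 ± 0.20 (edgeR adjusted p = 0.0132). Ric1, 51120 bp beyond Pdcd1lg2, averaged 43.3 ± 6.57 CPM in PBS and 74.7 ± 9.89 CPM in ICB tumors, a log2 fold change of 0.82 ± 0.13 (edgeR adjusted p = 0.000396). Neither was called in the other 4 comparisons with PBS. Ric1 in 5-FU+ICB vs PBS had a log2 fold change of 0.39 ± 0.13 (edgeR adjusted p = 0.0215), short of the 0.5 limit. Insl6 was not called in any of the 5, nor was Ermp1, whose log2 fold change in ICB vs PBS was -0.49 ± 0.14 (edgeR adjusted p = 0.0110). The genes Rln1 and Mlana had too few counts to be tested.

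Each ligand gene also overlaps a gene on the opposite strand, AC119228.1 within Cd274 and A930007I19Rik at the end of Pdcd1lg2. The estimated counts of AC119228.1 were 1.04 to 6.41 in PBS and 57.7 to 330 in ICB tumors. Those of A930007I19Rik were 4 to 15 in PBS and 143 to 315 in ICB tumors. Strand use in the counting is not given in the sources used here, so reads of a ligand gene and its antisense partner cannot be told apart.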

How the data were processed

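Reads were 100-base single-end, from whole-tumor RNA. Per the labels, the authors used bcl2fastq 2.20.0.422 and kallisto 0.46.0 with GRCm38/mm10. The study's methods add that low-count transcripts were dropped and that tximport was used to build the 2 count matrices. The authors deposited estimated counts per gene, not scaled to library size, in 2 matrices (5-FU and cisplatin) that share the PBS and ICB tumors; 23.4% and 23.8% of values were not whole and were rounded. The members and all gene lists were chosen with earlier results of these data known.

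In R 4.3.3, edgeR 4.0.16 (limma 3.58.1) was used with filterByExpr, TMM scaling and a quasi-likelihood test over the 4 groups of a matrix, adjusted by Benjamini-Hochberg over 17916 (5-FU) or 17819 (cisplatin) genes. ICB vs PBS came from the 5-FU matrix. Levels shown are CPM from the joined 28 tumors, log2 with a prior count of 2; differences in mean log2 CPM were taken within a matrix. Each tumor is a separate library named by group and replicate number. The p-values measure the spread between these tumors. Genes whose levels were most like a ligand's were taken by Pearson r over genes with a mean count of at least 50. Genes named were, per list, those called in most comparisons and those never called, up to 4 a list, with Pdcd1, Cd80, Rgmb, Ifng, Jak2 and Irf1, the 5 most alike and the nearest 3 genes each side; Myc and further genes never called were named after their values were seen. Of the genes counted in the lists, 1 is not reported here by name.

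Alternatives were DESeq2 1.42.0, DESeq2 size factors, no filter, a prior count of 0.5, joined matrices, a replicate block, levels relative to Ptprc and leaving out each tumor. On simulated counts for 5-FU+ICB vs PBS with 17916 genes, 85.5% of 200 genes changed by 2 on the log2 scale were recovered. Summed levels or counts of members are given in the text for the 12 cell type marker lists.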

Additional observations from a re-analysis of the deposited data

Results flagged for a closer look

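In 12 groups (2 genes in 6 treatments), 1 tumor stood far from the others of its group. Pdcd1lg2 in 5-FU+ICB replicate 2 had a log2 CPM of 3.57, and the nearest other tumor of the group had 5.67. The gap was 0.776 of the group's whole range, above Dixon's limit at 95% for 5 samples. Chance flags about 1 in 20 groups. Its Cd274 level of 105 CPM was not set apart in this way.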

How the results depend on the processing

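The differences of both ligands kept their direction and moved by less than 1 SD with DESeq2 size factors, no filter, a prior count of 0.5, joined matrices and a replicate block, and when any 1 tumor was left out, except that Pdcd1lg2 in cisplatin vs PBS became -0.08 without cisplatin replicate 1. Relative to Ptprc, Cd274 differed by 1.97 in ICB vs PBS, 0.90 in 5-FU vs PBS, 1.49 in 5-FU+ICB vs PBS, 1.43 in cisplatin+ICB vs PBS and 0.59 in 5-FU+ICB vs 5-FU, and Pdcd1lg2 by 3.40, 2.59 and 2.27 in ICB, 5-FU+ICB and cisplatin+ICB vs PBS. Cd274 in cisplatin vs PBS was then -0.0037. The number of listed genes called was 4 in 5-FU vs PBS (Ifng, Il4ra and Tnf among them) and 2 (Ifng and Irf1) in cisplatin+ICB vs cisplatin with joined matrices. With DESeq2 it was 1 (Vtcn1) in 5-FU+ICB vs ICB, beside 328 over all genes. It was 15 in 5-FU+ICB vs 5-FU, beside 539, and 15 in cisplatin+ICB vs cisplatin, beside 782. Leaving out 1 tumor gave 6 to 17 in 5-FU vs PBS, 0 to 32 in cisplatin+ICB vs PBS, 0 to 23 in 5-FU+ICB vs 5-FU (12 without 5-FU replicate 3) and 0 to 23 in cisplatin+ICB vs cisplatin (13 without cisplatin+ICB replicate 3). The cause was not tested.

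In no comparison did every pair of tumors with the same replicate number correlate above 0.1. In 5-FU+ICB vs 5-FU 3 of 5 pairs did, with r from -0.31 to 0.68. In cisplatin+ICB vs PBS 3 of 4 did, with r from -0.49 to 0.49. With so few pairs, this cannot settle whether tumors of the same number share a batch. With the replicate block, the listed genes called in cisplatin+ICB vs PBS were 2 (Tnf and Tnfrsf14) and calls over all genes were 95 instead of 1087. In 0 comparisons did every tumor correlate best with its own number.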
